A study of Mus musculus with 8 samples.

Results

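Chemokines are small secreted proteins that guide migrating cells, and chemokine receptors are the G protein-coupled receptors that read them. A set of 33 mouse genes, 23 ligands and 10 receptors, was taken by symbol from a table of 56941 genes, and all 33 had a row. The set left out the eotaxins and the chemokine genes most tied to cytotoxic cells, monocytes and M cells, which are given only where a result touches them. RNA came from the jejunum, the middle stretch of the small intestine, of naive mice. The 2 strains were C57BL/6, called B6 here, and C3H/HeJ, called C3H, each with 4 libraries. The age given for the mice was 6 to 8 weeks, and the strains shared cages for at least 8 weeks before the tissue was taken. That age is hard to reconcile with the caging time if it refers to collection, so the age at collection is uncertain. No allergen, drug or engineered allele is named for either strain. C3H/HeJ mice carry a spontaneous loss-of-function allele of Tlr4, the receptor for bacterial lipopolysaccharide, and B6 mice do not. The labels put all libraries in batch 1, give no sex, and do not say that each library came from its own mouse, so each p-value reflects variation among libraries that may be technical.

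In the gut, chemokines sort immune cells by place. Ccl25 from small-intestinal epithelium draws Ccr9-bearing T cells and plasma cells, and Ccl28 acts on Ccr10-bearing plasma cells. Ccl19, Ccl21 and Cxcl13 arrange T and B cells that carry Ccr7 and Cxcr5 inside lymphoid tissue, Cxcl12 retains Cxcr4-bearing cells, and Cxcl9, Cxcl10 and Cxcl11 are induced by interferon and attract T cells with Cxcr3. Ccl3, Ccl4 and Ccl6 are CC ligands made largely by myeloid cells and activated lymphocytes, and Cxcl1, Cxcl2 and Cxcl5 attract neutrophils through Cxcr2.

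Total counts ranged from 37205896 to 58251332 per library, and levels are given as CPM, counts scaled to a common library size with TMM factors. In every sentence that lists 4 values for a strain, B6 libraries are in the order 2, 3, 4, 5 and C3H libraries in the order 1, 3, 4, 5. Differences are log2 fold changes of C3H over B6 with their standard error (SE), and a gene was called changed when its adjusted p from edgeR's quasi-likelihood test was below 0.05 over the 18025 genes tested. Of those genes 21.4% were called, 11.3% higher and 10.1% lower in C3H. Epithelial markers were abundant in every library, with a summed level of 16719 to 27188 CPM. Pancreatic enzyme transcripts varied widely within both strains, from 7.24 to 224 CPM in B6 and from 7.75 to 2592 CPM in C3H. B6 library 3 held the most B cell marker RNA, 57.0 CPM against 14.7 to 27.6 CPM in the other 7 libraries.

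Among the called genes of this list, more were lower than higher in C3H. The list was chosen with earlier results of these data known, so the share and direction given here describe this list only. Of the other chemokine family genes 19 were tested, with 5 called higher and 6 lower. Of the 33 genes, 29 passed the count filter and 11 of those were called, or 37.9%, beside 21.4% of all genes tested. Lower in C3H were 9 genes: the ligands Ccl3, Ccl4, Ccl6, Ccl22, Cxcl10 and Cx3cl1 and the receptors Ccr9, Cxcr3 and Cxcr6. Higher were 2, the stromal ligand Cxcl12 and the neutrophil receptor Cxcr2. Cxcr2 and Ccl4 passed the count filter only through the strain in which they were higher. For all 11 the 4 values of each strain did not overlap, which was also so for 24.4% of all genes tested (12.7% higher and 11.7% lower in C3H). The median log2 fold change of the 29 genes was -0.41, beside 0.03 for all genes. Ligands and receptors shared this direction, with 1 ligand higher and 6 lower of 19 tested, and 1 receptor higher and 3 lower of 10 tested. When the 4 libraries richest in pancreatic transcripts (B6 2, B6 3, C3H 3 and C3H 5) were left out, 7 genes were called, 2 higher and 5 lower, with 2 libraries left per strain. Ccl22, Cxcl10, Ccr9, Cxcr2 and Cxcr6 then missed the threshold (adjusted p = 0.109, 0.203, 0.0932, 0.0528 and 0.239), with each log2 fold change keeping its direction, and Cxcl13 passed it.

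**Figure D1:**
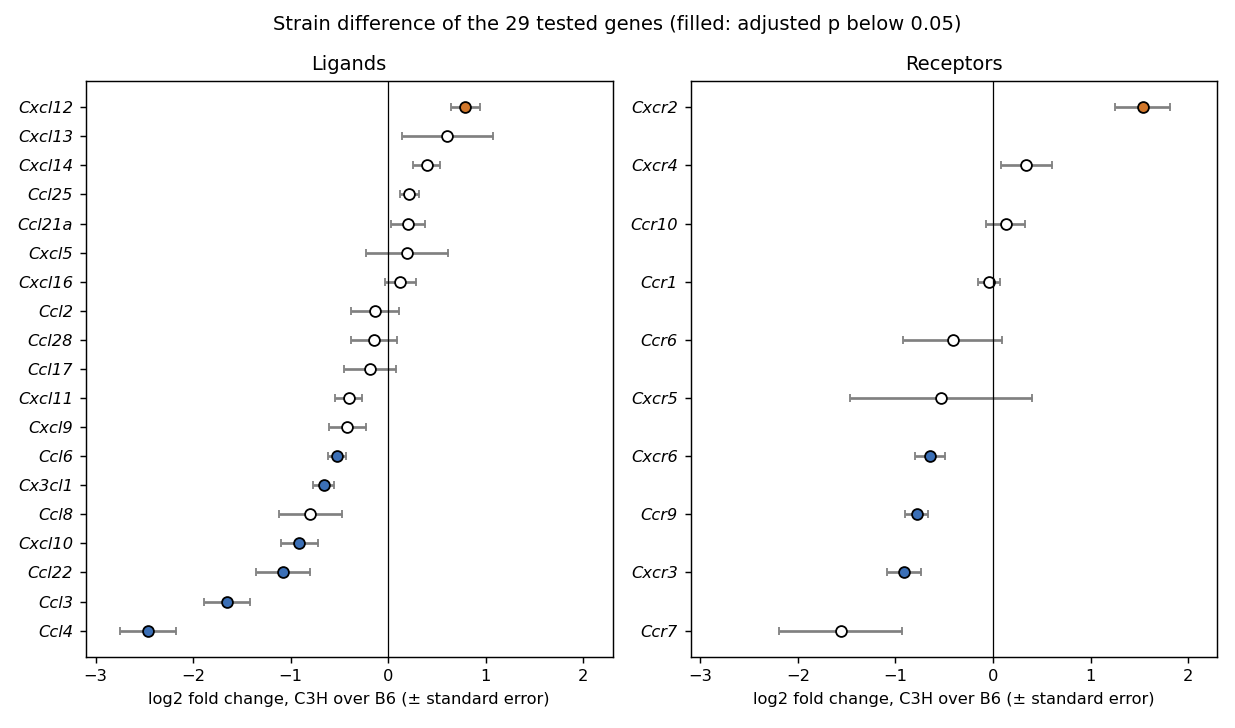
Log2 fold change of C3H over B6 with its standard error (horizontal axis) for the 19 ligands and 10 receptors that passed the count filter. Filled points have an adjusted p below 0.05 (blue lower, orange higher in C3H); 9 of the 11 filled points lie left of 0.

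T cell RNA was lower in C3H, and this stands beside every lymphocyte result here. All 9 T cell markers fell, with a median log2 fold change of -1.14, and their summed level was 77.1 to 98.1 CPM in B6 and 38.6 to 54.6 CPM in C3H. Of 8 intraepithelial lymphocyte markers 7 fell, the sum being 363 to 372 CPM in B6 and 134 to 221 CPM in C3H. In bulk tissue, fewer cells of a type and less RNA per cell cannot be told apart.

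Sequences upstream of 4 genes are shown as examples, and no result here rests on them. The genes are Cxcl10, which fell, and its close neighbour on chromosome 5, Cxcl9, which did not pass the test. The others are the epithelial ligand Cx3cl1 and the gut homing receptor Ccr9, which both fell. Each sequence is the 250 bases before the transcript start in RefSeq on GRCm38.p6, read 5′ to 3′ on the gene's strand. The reference is a B6 genome, and C3H sequence was not used here. Capitals mark matches on either strand to an ISRE-like motif (GAAA, any 2 bases, GAAA, the kind of element bound by interferon-activated factors), a kB-like motif (GGGA, any 4 bases, CC, the kind bound by NF-kB) and a TATA-like motif (TATAAA).
Cxcl10, chr5:92348890-92349139, minus strand: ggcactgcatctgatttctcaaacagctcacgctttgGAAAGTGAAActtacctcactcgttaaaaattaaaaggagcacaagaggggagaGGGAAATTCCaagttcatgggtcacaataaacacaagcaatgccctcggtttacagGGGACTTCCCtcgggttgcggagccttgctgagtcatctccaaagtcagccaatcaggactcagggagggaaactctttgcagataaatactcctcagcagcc
Cxcl9, chr5:92328080-92328329, minus strand: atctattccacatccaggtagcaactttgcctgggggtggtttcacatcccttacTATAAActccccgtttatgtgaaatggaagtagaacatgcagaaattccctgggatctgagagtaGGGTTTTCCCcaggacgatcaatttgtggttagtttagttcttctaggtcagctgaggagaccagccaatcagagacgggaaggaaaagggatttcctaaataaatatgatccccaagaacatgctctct
Cx3cl1, chr8:94771930-94772179, plus strand: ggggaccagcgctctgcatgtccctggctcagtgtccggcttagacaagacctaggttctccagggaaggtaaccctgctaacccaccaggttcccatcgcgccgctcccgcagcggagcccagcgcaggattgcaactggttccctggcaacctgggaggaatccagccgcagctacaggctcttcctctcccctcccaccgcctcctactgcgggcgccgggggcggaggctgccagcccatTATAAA
Ccr9, chr9:123766961-123767210, plus strand: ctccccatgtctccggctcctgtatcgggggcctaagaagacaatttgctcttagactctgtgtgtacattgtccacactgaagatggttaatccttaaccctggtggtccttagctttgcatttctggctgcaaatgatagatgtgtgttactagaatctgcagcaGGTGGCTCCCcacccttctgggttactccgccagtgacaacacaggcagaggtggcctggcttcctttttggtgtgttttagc
The Cxcl10 window held an ISRE-like match, GAAAGTGAAA, beginning 213 bases before the start, and 2 kB-like matches, GGGAAATTCC and GGGACTTCCC, beginning 159 and 103 bases before it. The Cxcl9 window held a kB-like match, GGGTTTTCCC, and a TATA-like match, with no ISRE-like match. Cx3cl1 had a TATA-like match that ended at the base before the start, and Ccr9 had a kB-like match, GGTGGCTCCC, beginning 83 bases before it. The window of Ccl3 was searched as well, held no match to these motifs and is not shown. Among all 32851 promoter windows of this length in the table, 2.98% held the ISRE-like, 17.6% the kB-like and 12.4% the TATA-like motif. Of the 33 genes, 24 were in the table. The ISRE-like motif was found in 3 of them, Ccl19, Cxcl10 and Cxcl14, the kB-like motif in 10, and the TATA-like motif in 6. The matches describe the letters only.

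The homing axis of the small intestine split, with the receptor lower in C3H while its ligand was not. Per kilobase of exon, Ccl25 (67.9 CPM in B6 and 78.8 in C3H) and Ccl6 (70.4 and 48.8) had the highest levels of the group. The values of Ccl25 were 477, 529, 475 and 540 CPM in B6 and 570, 534, 607 and 636 CPM in C3H, and the ranges overlapped by 1 C3H library. Its log2 fold change was 0.22 ± 0.10 (SE, n = 4 per strain; adjusted p = 0.139). With library totals in place of TMM scaling it was 0.27 and passed the test at an adjusted p of 0.0346. Ccr9, the receptor for Ccl25, read 12.8, 11.8, 12.4 and 9.51 CPM in B6 and 7.26, 6.76, 7.26 and 5.72 CPM in C3H. Every C3H library was below every B6 library, and Ccr9 fell by 0.78 ± 0.12 on the log2 scale, a 1.72-fold difference (adjusted p = 0.000796). Within each library the log2 ratio of Ccl25 to Ccr9 was 5.21, 5.48, 5.25 and 5.82 in B6 and 6.29, 6.30, 6.38 and 6.79 in C3H. The ratio was thus larger in all 4 C3H libraries, by 0.99 ± 0.18, with an exact two-sided permutation p of 0.0286, the smallest that 4 libraries against 4 allow. Over the 12 ligand and receptor pairs tested, the adjusted exact permutation p was 0.0857, so no pair passed the threshold after adjustment, while 4 of the 12 reached p = 0.0286 unadjusted. As no p could be smaller, a pair could pass after adjustment only if most of the pairs reached that value. The adjusted test could therefore hardly be passed here, and the same holds for the comparisons of receptors with markers below.

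Ccr9 stood beside the lower T cell RNA given above. Its log2 level relative to the mean of the 9 T cell markers was 1.17, 0.61, 1.07 and 0.63 in B6 and 1.35, 1.45, 1.44 and 0.99 in C3H, a difference of 0.44 ± 0.18 with overlapping ranges (exact permutation p = 0.0857, adjusted over 11 receptor comparisons 0.157). Plasma cells also carry Ccr9, and their summed marker level was 1392 to 1648 CPM in B6 and 1000 to 1265 CPM in C3H. Most of this sum was Jchain, with means of 1194 CPM in B6 and 858 CPM in C3H. Jchain and Tnfrsf17 were the 2 of 7 markers called lower. Mzb1 and Sdc1 had positive log2 fold changes, 0.28 and 0.22, that were not called (edgeR adjusted p = 0.446 and 0.142). The other gut homing pair showed no difference that passed a test. Ccl28, the epithelial ligand of Ccr10, was 27.2, 21.1, 11.7 and 20.2 CPM in B6 and 22.5, 16.2, 21.0 and 12.8 CPM in C3H, spread over the same range in both strains (log2 fold change -0.14 ± 0.24, adjusted p = 0.730). Ccr10, found on IgA plasma cells, was 2.52, 2.06, 1.48 and 2.94 CPM in B6 and 2.65, 2.36, 2.69 and 2.12 CPM in C3H (0.13 ± 0.20, adjusted p = 0.710). The ratio of Ccl28 to Ccr10 differed by -0.28 ± 0.19 with overlapping ranges (exact permutation p = 0.200).

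**Figure D2:**
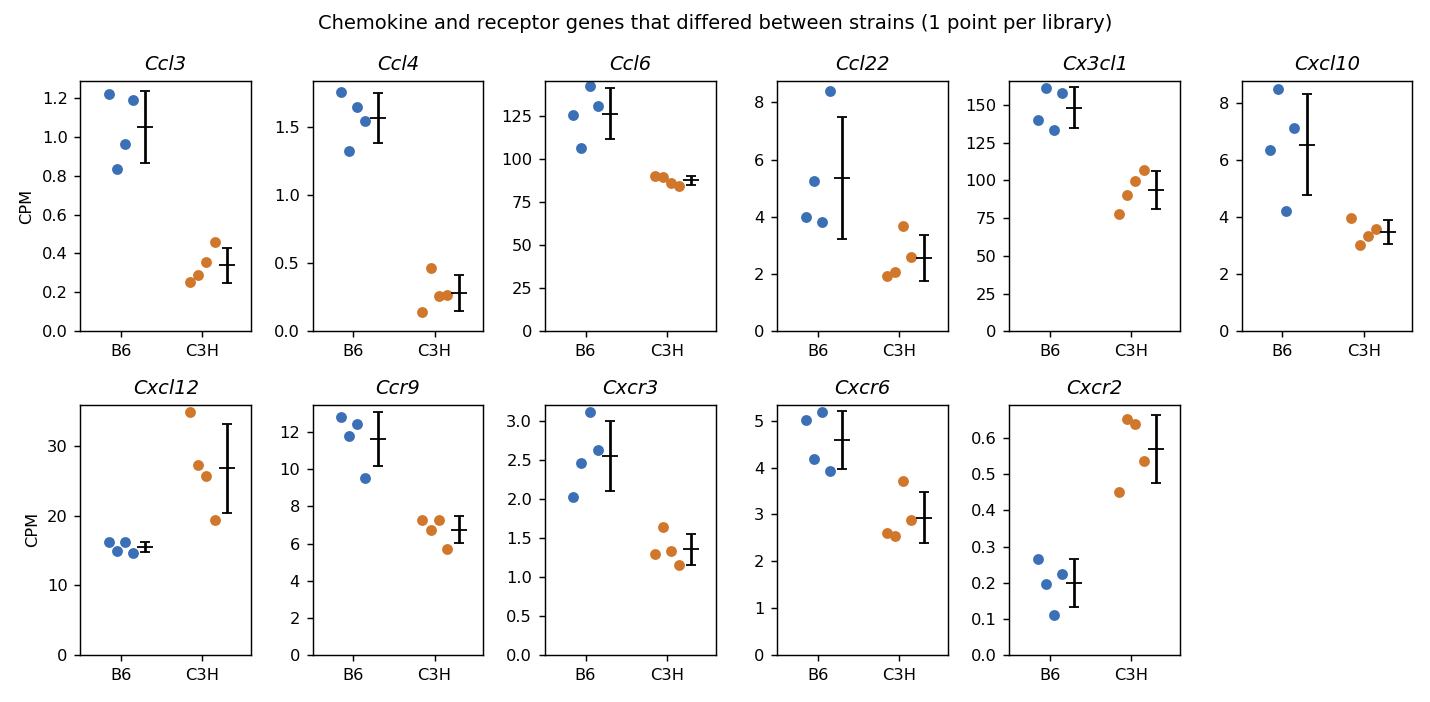
CPM (vertical axes, each starting at 0) of the 11 called genes, 1 point per library (blue B6, orange C3H), with the mean and SD of the 4 libraries as black bars. In each panel the strains do not overlap; for Ccl22 the highest C3H library (3.68 CPM) lies just under the lowest B6 library (3.81 CPM).

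Cx3cl1 and Cxcl16 are transmembrane chemokines, which can both tether and attract cells; Cx3cl1 fell, Cxcl16 did not pass the test, and the difference between them was not tested. Cx3cl1, the epithelial and endothelial ligand of Cx3cr1, was 140, 161, 134 and 158 CPM in B6 and 78.1, 90.3, 100 and 107 CPM in C3H. All C3H libraries were below all B6 libraries, and Cx3cl1 fell by 0.66 ± 0.11 (log2, adjusted p = 0.00126). Its receptor Cx3cr1, a macrophage gene outside the group and named after its values were seen, was 9.90 ± 0.64 CPM in B6 and 11.5 ± 1.46 CPM in C3H (SD, n = 4; log2 fold change 0.22, adjusted p = 0.177 by edgeR). Adam17, a protease that can shed Cx3cl1 and Cxcl16 from the cell surface, rose by 0.28 ± 0.08 (log2, adjusted p = 0.0265). Adam10, the other Adam protease examined, had means of 104.6 CPM in B6 and 99.2 CPM in C3H and was not called (-0.08 ± 0.10, edgeR adjusted p = 0.632). Both were named after their values were seen. The Adam17 call did not hold without B6 library 3, where its adjusted p was 0.0769, nor in 3 other fits that left out a library.
Cxcl16, the other membrane-bound chemokine, was 46.9, 67.9, 56.1 and 58.8 CPM in B6 and 46.3, 55.7, 71.3 and 77.2 CPM in C3H. The strains covered much of the same range (log2 fold change 0.13 ± 0.16, adjusted p = 0.648). Its receptor Cxcr6, carried by tissue-resident T cells and innate lymphoid cells, was 5.02, 4.19, 5.19 and 3.92 CPM in B6 and 2.61, 2.53, 3.71 and 2.87 CPM in C3H. The highest C3H library lay just under the lowest B6 library, and Cxcr6 fell by 0.65 ± 0.15 (log2, adjusted p = 0.0114). The log2 ratio of Cxcl16 to Cxcr6 was 3.21, 4.003, 3.42 and 3.89 in B6 and 4.13, 4.44, 4.25 and 4.73 in C3H, higher in each C3H library by 0.75 ± 0.23 (exact permutation p = 0.0286, adjusted 0.0857). Relative to the T cell markers, Cxcr6 was higher in C3H by 0.57 ± 0.22 (exact permutation p = 0.0286, adjusted 0.0786), or 0.45 against the median marker, where the ranges overlapped. The summed markers of group 3 innate lymphoid cells, another source of Cxcr6, were 62.5 to 80.1 CPM in B6 and 92.8 to 123 CPM in C3H, with 2 of 4 tested markers higher; their part in the Cxcr6 result was not tested.

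Of the interferon-inducible ligands of Cxcr3, Cxcl10 was called lower in C3H. Cxcl10 was 6.35, 8.503, 4.23 and 7.11 CPM in B6 and 3.98, 3.01, 3.35 and 3.57 CPM in C3H; the lowest B6 library lay just above the highest C3H library. The fall was 0.91 ± 0.19 on the log2 scale (adjusted p = 0.00597). Cxcl9 was 20.002, 14.8, 11.8 and 14.2 CPM in B6 and 9.97, 9.48, 15.6 and 10.5 CPM in C3H. C3H library 4 alone reached the B6 range, and the log2 fold change was -0.42 ± 0.19 (adjusted p = 0.143). Without that library it was -0.61, with an adjusted p of 0.0263. Cxcl11 was 7.54, 9.92, 6.28 and 8.56 CPM in B6 and 6.32, 5.51, 6.19 and 6.37 CPM in C3H, with B6 library 4 inside the C3H range (-0.41 ± 0.14, adjusted p = 0.0609). DESeq2 gave Cxcl11 an adjusted p of 0.0252, and edgeR gave 0.0151 without B6 library 4.
Cxcr3, the receptor for these ligands on activated T cells, was 2.02, 2.45, 3.10 and 2.62 CPM in B6 and 1.30, 1.63, 1.33 and 1.15 CPM in C3H. It was lower in every C3H library, by 0.91 ± 0.17 (log2, adjusted p = 0.00297). The ratio of Cxcl10 to Cxcr3 differed by 0.02 ± 0.35 (exact permutation p = 1), and its sign changed when any of 3 libraries was left out. The ratios of Cxcl9 and of Cxcl11 to Cxcr3 differed by 0.47 ± 0.35 and 0.50 ± 0.27, both with overlapping ranges (exact permutation p = 0.257 and 0.0857). Relative to the T cell markers Cxcr3 differed by 0.33 ± 0.22, also with overlap (exact permutation p = 0.200).

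**Figure D3:**
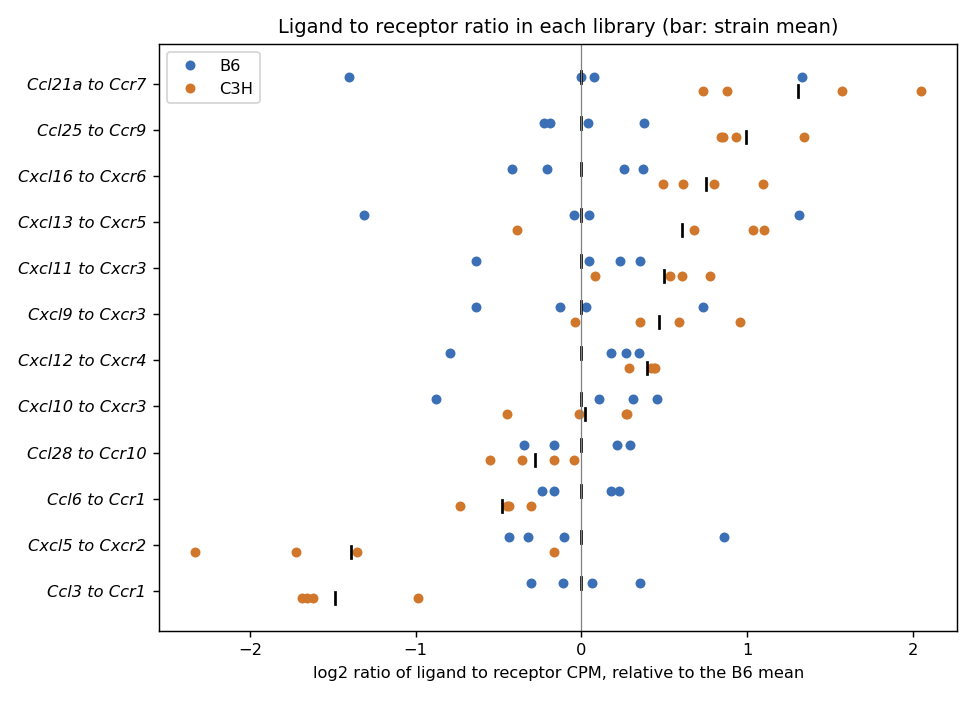
Log2 ratio of ligand to receptor CPM in each library (horizontal axis, shifted so that the B6 mean of each pair is 0) for the 12 pairs in which both genes passed the count filter; short bars mark strain means. The strains are apart for Ccl25 to Ccr9 and Cxcl16 to Cxcr6 (C3H higher) and for Ccl3 to Ccr1 and Ccl6 to Ccr1 (C3H lower), and overlap in the other 8 pairs.

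The inflammatory CC ligands Ccl3 and Ccl4 had the largest falls of the group, at low levels. Ccl4, a CC ligand made by activated lymphocytes and macrophages, was 1.75, 1.32, 1.64 and 1.54 CPM in B6 and 0.137, 0.461, 0.256 and 0.269 CPM in C3H, from 292 and 51 counts in all. Every B6 library was well above every C3H library, and Ccl4 fell by 2.46 ± 0.29 (log2, 5.49-fold, adjusted p = 0.000105). Ccl3, a ligand of Ccr1, was 1.22, 0.833, 0.961 and 1.19 CPM in B6 and 0.255, 0.288, 0.358 and 0.457 CPM in C3H, from 196 and 59 counts. The groups were again apart, and Ccl3 fell by 1.65 ± 0.24 (log2, 3.14-fold, adjusted p = 0.000447). Ccl6, another ligand of Ccr1, was 125.7, 106.6, 142.4 and 130.9 CPM in B6 and 90.4, 89.4, 86.3 and 84.5 CPM in C3H. Its C3H libraries lay close together below all B6 libraries, and it fell by 0.53 ± 0.09 (log2, adjusted p = 0.00194).
Ccr1 itself, on macrophages and other myeloid cells, was 9.16, 8.18, 8.21 and 7.28 CPM in B6 and 7.26, 7.89, 9.34 and 7.49 CPM in C3H, spanning the same range (-0.04 ± 0.11, adjusted p = 0.860). Its log2 fold change was 0.021 with library totals. The log2 ratio of Ccl3 to Ccr1 was lower in each C3H library, by 1.49 ± 0.22 in the mean, and that of Ccl6 to Ccr1 by 0.48 ± 0.15 (each exact permutation p = 0.0286, adjusted 0.0857). Macrophage markers summed to 202 to 254 CPM in B6 and 251 to 278 CPM in C3H, 2 of 8 being higher in C3H. Relative to them Ccr1 differed by -0.24 ± 0.10 (exact permutation p = 0.0571). As given above, 7 of 8 intraepithelial lymphocyte markers were lower, the sum being 363 to 372 CPM in B6 and 134 to 221 CPM in C3H. The part of either cell type in the Ccl3 and Ccl4 results was not tested.

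In the RefSeq gene order of GRCm38.p6, Ccl6, Ccl3 and Ccl4 lie in a run on chromosome 11, Ccl5, Ccl9, Ccl6, Ccl3, Ccl4, with no other protein-coding gene between them. All 5 were called lower in C3H, beside 10.1% of all genes tested. Ccl5 and Ccl9 are outside the group: Ccl5, a cytotoxic lymphocyte chemokine, fell by 1.68 ± 0.14 (log2, adjusted p = 9.50e-06) and Ccl9 by 0.45 ± 0.13 (adjusted p = 0.0327). The Ccl9 call was lost in 5 of the 8 fits that left out a library, with adjusted p-values of up to 0.0957, and without the 4 pancreas-rich libraries (-0.23, adjusted p = 0.563). The other run on this chromosome, Ccl2, Ccl7, Ccl11, Ccl12, Ccl8, Ccl1, had no gene called lower, but Ccl7, Ccl12 and Ccl1 were not tested. There Ccl2, a monocyte attractant, was 0.452, 0.294, 0.259 and 0.334 CPM in B6 and 0.334, 0.307, 0.281 and 0.269 CPM in C3H (-0.14 ± 0.25, adjusted p = 0.80). Ccl8 was 0.797, 0.613, 0.277 and 0.520 CPM in B6 and 0.334, 0.365, 0.307 and 0.215 CPM in C3H (-0.80 ± 0.32, adjusted p = 0.110), and without B6 library 4 its adjusted p was 0.0210. The untested genes had few counts in B6 and C3H, 14 and 21 for Ccl7, 32 and 19 for Ccl12 and 5 and 0 for Ccl1. Ccl11, an eotaxin, rose by 1.13 ± 0.21 (log2, adjusted p = 0.00279).

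**Figure D4:**
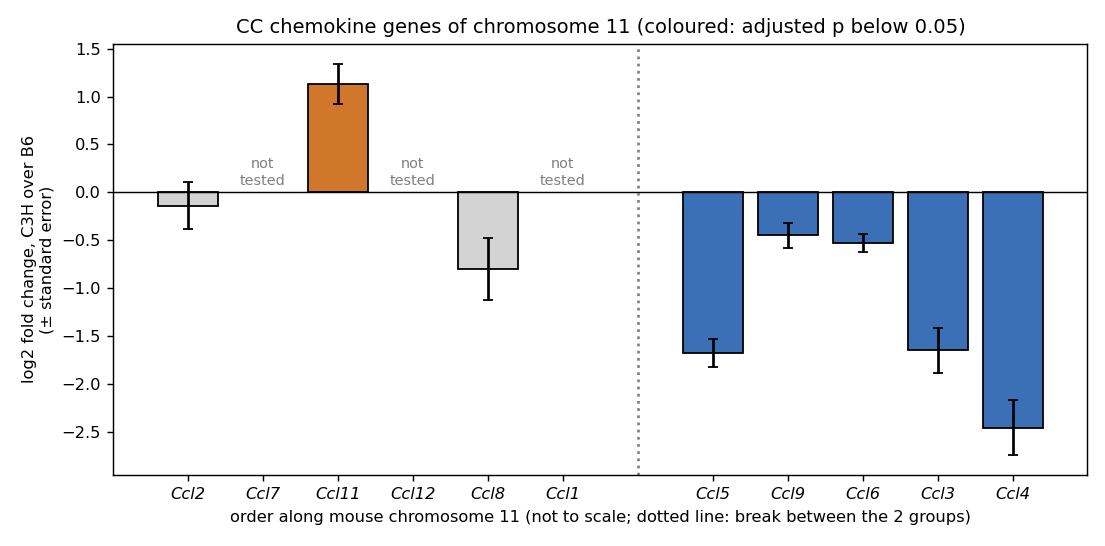
Log2 fold change of C3H over B6 with its standard error (vertical axis) for chemokine genes of chromosome 11 in their RefSeq order (horizontal axis, order only). The 5 genes right of the dotted line are all lower in C3H. Left of it, Ccl11 is higher, Ccl2 and Ccl8 are not called, and Ccl7, Ccl12 and Ccl1 were not tested.

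Ccl22 and Ccl17, the 2 dendritic cell ligands of Ccr4, lie either side of Cx3cl1 on chromosome 8. Ccl22 was 3.98, 5.27, 3.81 and 8.42 CPM in B6 and 1.92, 2.05, 3.68 and 2.58 CPM in C3H. The highest C3H library lay just under the lowest B6 library, and Ccl22 fell by 1.08 ± 0.28 (log2, adjusted p = 0.0175). Without C3H library 3 the adjusted p was 0.0523, and without B6 library 3 and C3H library 1 it was 0.0768. Ccl17 was 0.531, 0.613, 0.499 and 0.594 CPM in B6 and 0.334, 0.365, 0.716 and 0.591 CPM in C3H, with overlap (-0.19 ± 0.27, adjusted p = 0.684). Ccr4, their receptor on regulatory and type 2 helper T cells and outside the group, had 98 counts in B6 and 5 in C3H and fell by 4.13 ± 0.53 (log2, adjusted p = 0.000199). Dendritic cell markers summed to 38.9 to 52.1 CPM in B6 and 46.5 to 50.1 CPM in C3H, with 1 of 7 higher and 1 lower.

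Cxcl12 was the ligand that rose. It is made by stromal and endothelial cells and holds Cxcr4-bearing cells in place, and was 16.2, 14.97, 16.2 and 14.7 CPM in B6 and 34.9, 27.3, 25.7 and 19.3 CPM in C3H. All C3H libraries exceeded the tight B6 range, and Cxcl12 rose by 0.79 ± 0.15 (log2, 1.73-fold, adjusted p = 0.00257). None of 6 fibroblast markers was called (summed level 321 to 495 CPM in B6, 350 to 518 CPM in C3H), nor any of 6 lymphatic endothelial markers. Of 6 blood endothelial markers 2 were higher and 1 lower (114 to 128 CPM in B6, 126 to 162 CPM in C3H); their part in the Cxcl12 result was not tested. Cxcl14, a stromal and epithelial chemokine, was 19.5, 22.9, 23.2 and 31.6 CPM in B6 and 35.3, 27.0, 32.4 and 32.95 CPM in C3H. B6 library 5 alone lay in the C3H range, and the log2 fold change was 0.39 ± 0.14 (adjusted p = 0.0704). Without that library it was 0.54, with an adjusted p of 0.00627.
Cxcr4, the receptor for Cxcl12 on many leukocytes, was 1.99, 3.90, 1.89 and 1.93 CPM in B6 and 3.85, 3.34, 2.86 and 2.12 CPM in C3H. B6 library 3 reached the top of the C3H range while the other 3 B6 libraries lay below all C3H libraries (0.34 ± 0.26, adjusted p = 0.409). Without B6 library 3 the log2 fold change was 0.66 and passed the test (adjusted p = 0.0481). The log2 ratio of Cxcl12 to Cxcr4 differed by 0.40 ± 0.27 (exact permutation p = 0.0571). Relative to the T cell markers, Cxcr4 was higher in every C3H library, by 1.58 ± 0.25 (exact permutation p = 0.0286, adjusted 0.0786).

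Genes that organise lymphoid follicles turned on B6 library 3. Cxcl13, the B cell attractant made by follicular stroma, was 1.14, 3.50, 0.647 and 0.817 CPM in B6 and 2.98, 2.71, 1.82 and 1.58 CPM in C3H. The other 3 B6 libraries were below all C3H libraries, and B6 library 3 was above them all (0.61 ± 0.46, adjusted p = 0.410). Without B6 library 3 the log2 fold change was 1.41, with an adjusted p of 0.00629, and without C3H library 1 as well it was 1.25 (adjusted p = 0.0147). Cxcr5, its receptor on B cells, was 0.0797, 2.23, 0.129 and 0.186 CPM in B6 and 0.981, 0.288, 0.256 and 0.161 CPM in C3H (-0.53 ± 0.93, adjusted p = 0.746). The highest library of each strain, B6 3 and C3H 1, was also the highest of its strain for summed B cell markers (57.0 and 27.6 CPM) and for the follicular dendritic cell markers Cr2 and Fcer2a together (5.64 and 2.41 CPM). Relative to the 8 B cell markers, Cxcr5 differed between strains by 0.06 ± 0.34 (exact permutation p = 0.857).
Ccr7, which brings T cells and dendritic cells to lymphoid tissue, was 0.239, 2.06, 0.370 and 0.613 CPM in B6 and 0.412, 0.173, 0.307 and 0.188 CPM in C3H. It too was highest in B6 library 3, and its log2 fold change of -1.56 ± 0.63 did not pass the test (adjusted p = 0.106). DESeq2 called it (adjusted p = 0.0246), as did edgeR without B6 library 2 (adjusted p = 0.0468), but without B6 library 3 the value was -0.61 (adjusted p = 0.360). Relative to the B cell markers Ccr7 was lower in each C3H library, by 1.24 ± 0.38 in the mean (exact permutation p = 0.0286, adjusted 0.0786), but against the median marker the ranges overlapped. Relative to the T cell markers it differed by 0.13 ± 0.58 (exact permutation p = 0.857).
Ccl21a, the lymphatic and stromal ligand of Ccr7, was 10.97, 12.3, 6.69 and 10.1 CPM in B6 and 11.7, 13.8, 9.95 and 10.6 CPM in C3H (0.21 ± 0.17, adjusted p = 0.458). Near-identical Ccl21 copies share reads with it, Ccl21b being listed at 0 in all 8 libraries, so its level is uncertain. Ccl19, the other Ccr7 ligand, had 16 counts in B6 and 5 in C3H and was not tested; B6 library 3 held 0.319 CPM, and no other library exceeded 0.0785 CPM. Ccr6, which positions B cells and innate lymphoid cells at follicles, was 0.319, 1.49, 0.296 and 0.409 CPM in B6 and 0.550, 0.384, 0.614 and 0.295 CPM in C3H (-0.41 ± 0.51, adjusted p = 0.630). Its log2 fold change was 0.43 without B6 library 3. The ratios of Cxcl13 to Cxcr5 and of Ccl21a to Ccr7 differed by 0.61 ± 0.64 and 1.31 ± 0.64, with overlapping ranges (exact permutation p = 0.371 and 0.0857).

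**Figure D5:**
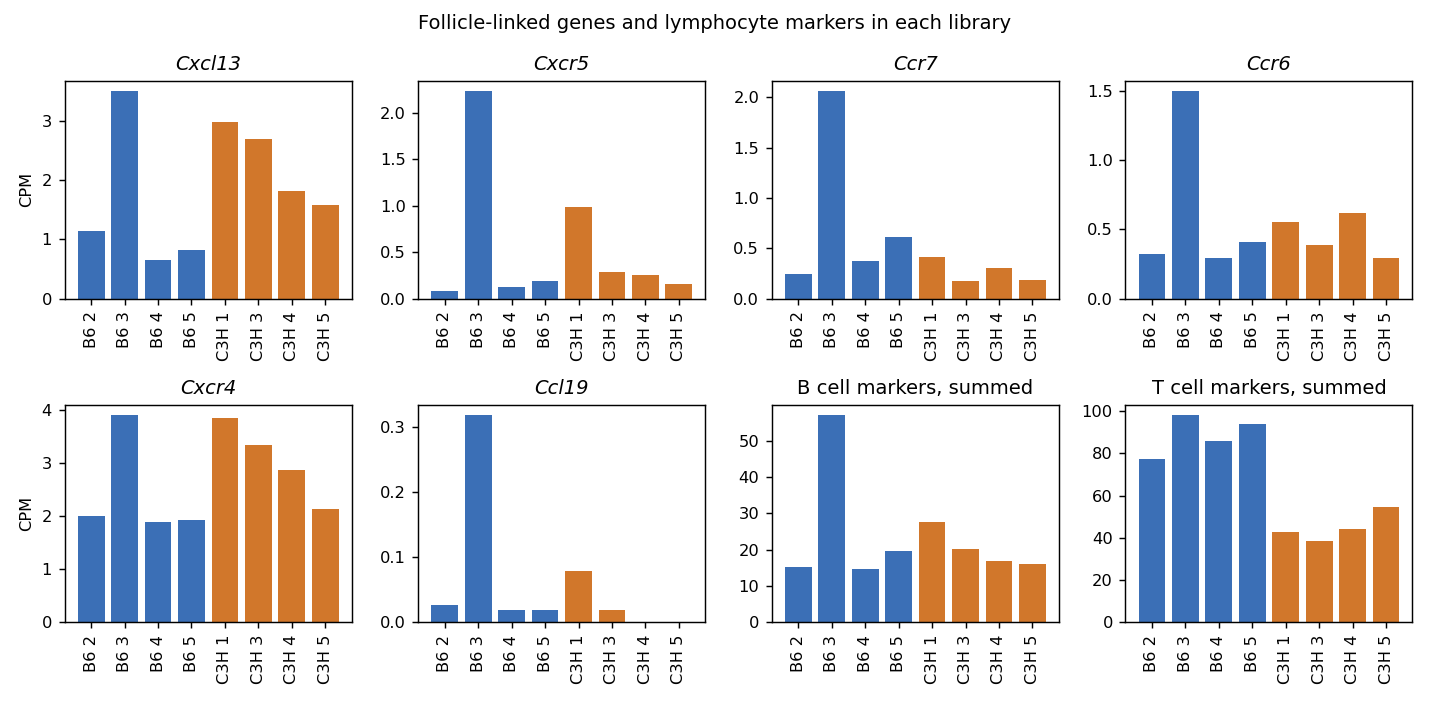
CPM in each library (vertical axes start at 0; blue B6, orange C3H) of 6 lymphoid tissue genes and of the summed B and T cell markers. B6 library 3 has the tallest bar for Cxcl13, Cxcr5, Ccr7, Ccr6, Cxcr4, Ccl19 and the B cell markers, while T cell markers are at 54.6 CPM or less in all C3H libraries.

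The neutrophil axis was near the detection limit. Cxcr2, the receptor for neutrophil-attracting CXC ligands, was 0.266, 0.196, 0.111 and 0.223 CPM in B6 and 0.451, 0.653, 0.639 and 0.537 CPM in C3H, from 36 and 102 counts. All C3H libraries were above all B6 libraries, and Cxcr2 rose by 1.53 ± 0.28 (log2, 2.90-fold, adjusted p = 0.00231). Its counts were 10, 8, 6 and 12 in B6 and 23, 34, 25 and 20 in C3H, and the filter's minimum count was 10. Cxcr2 thus passed the filter only through C3H. Its test and its comparison with markers below rest on a gene let in by the strain where it was high. Of 8 neutrophil markers only 2, Csf3r and Retnlg, passed the count filter. Retnlg was higher in C3H (0.86 ± 0.15, edgeR adjusted p = 0.00168) and Csf3r was not called (0.03 ± 0.12, adjusted p = 0.901). These 2 genes made up most of the summed level, 3.59 to 4.04 CPM in B6 and 4.75 to 5.24 CPM in C3H. The 6 untested markers went both ways. Total counts in B6 and C3H were 14 and 4 for S100a8, 15 and 5 for S100a9 and 0 and 7 for Ly6g. Camp had 7 and 15, Mmp8 3 and 5 and Ngp 3 and 5. Relative to Csf3r and Retnlg, Cxcr2 was higher in C3H by 0.93 ± 0.25 (exact permutation p = 0.0286, adjusted 0.0786). Its ligands were scarce: Cxcl1 had 10 counts in B6 and 26 in C3H, Cxcl2 44 and 20, and Cxcl5 40 and 45. Cxcl1 and Cxcl2 were not tested; Cxcl1 was 0.0185 to 0.106 CPM in B6 and 0.107 to 0.196 CPM in C3H. Cxcl5 was 0.266, 0.147, 0.259 and 0.186 CPM in B6 and 0.432, 0.250, 0.179 and 0.0806 CPM in C3H (0.19 ± 0.42, adjusted p = 0.803), and its ratio to Cxcr2 differed by -1.39 ± 0.54 with overlap (exact permutation p = 0.0857).

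The rest of the chemokine family was called in both directions. Of 29 further ligands, receptors and atypical receptors examined, 19 were tested, 5 were higher and 6 lower in C3H, beside 21.4% of all genes, and the median log2 fold change was -0.12. Besides Ccl11, the higher ones were the ligand Cxcl15 (2.11 ± 0.46, adjusted p = 0.00723) and Xcl1 with its dendritic cell receptor Xcr1 (1.15 ± 0.19 and 1.12 ± 0.16, adjusted p = 0.00145 and 0.000415). The eotaxin receptor Ccr3 was also higher (0.74 ± 0.16, adjusted p = 0.00713), though not past the threshold without the 4 pancreas-rich libraries (adjusted p = 0.0860). Lower, besides Ccl5, Ccl9 and Ccr4, were Ackr4, an atypical receptor that removes Ccl19, Ccl21 and Ccl25 (-0.73 ± 0.14, adjusted p = 0.00379), and Ccrl2 (-0.49 ± 0.16, adjusted p = 0.0466). The Ccrl2 call was lost in 7 of the 8 fits that left out a library, with adjusted p-values of up to 0.120. Ccl27a was lower too (-3.28 ± 0.43, adjusted p = 0.000229), but near-identical copies of it exist and its value is uncertain. Ccl20, the ligand of Ccr6, did not pass (-0.80 ± 0.35, adjusted p = 0.131), though it did without B6 library 4 (adjusted p = 0.0403); it was chosen after its values were seen, as the partner of a member described above.
Among 16 genes that carry chemokine signals into the cell or process chemokines, 2 rose and 6 fell, beside 11.3% of all genes higher and 10.1% lower, with a median of -0.14. The falls were led by Rgs1, a brake on chemokine receptor signalling in lymphocytes (-1.54 ± 0.11, adjusted p = 2.92e-06), and by Pik3cg, the kinase subunit activated by these receptors (-0.77 ± 0.09, adjusted p = 0.000103). Elmo1, Dock2 and Rac2, parts of the leukocyte migration machinery, fell by 0.75 ± 0.12, 0.47 ± 0.09 and 0.70 ± 0.18 (adjusted p = 0.00127, 0.00275 and 0.0150). Arrb1, an arrestin, rose by 0.34 ± 0.07 (adjusted p = 0.00720). Without the 4 pancreas-rich libraries Dock2, Rac2 and Arrb1 missed the threshold (adjusted p = 0.125, 0.0807 and 0.252). Dpp4, an epithelial and T cell peptidase that trims Cxcl10 and Cxcl12, was at 1312 ± 88.9 CPM in B6 and 944 ± 126 CPM in C3H (SD, n = 4) and fell by 0.47 ± 0.12 (edgeR adjusted p = 0.0169); it and Adam17 lie outside the rule for naming genes and were picked after their values were seen. The Dpp4 call was lost without C3H library 3 (adjusted p = 0.0735).
Of 10 tested genes that organise lymphoid tissue 3 were called, or 30.0%, a share near the 21.4% of all genes. Tnfrsf11a (0.45 ± 0.11, adjusted p = 0.0161) and the adhesion molecule Vcam1 (0.37 ± 0.11, adjusted p = 0.0295) were higher and Nfkb2 was lower (-0.33 ± 0.10, adjusted p = 0.0399). Vcam1 and Nfkb2 each lost the call in several fits that left out a library, with adjusted p-values of up to 0.0970 and 0.0925, and Tnfrsf11a lost it without C3H library 3 (adjusted p = 0.0552).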

How the data were processed

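The members, lists and pairs were chosen with earlier results of these data known. Poly(A) libraries were made from 200 ng of RNA with a stranded Illumina kit, per the labels' protocols. The authors deposited whole-number read counts per gene; STAR 2.7.9a, HTSeq 2.0.2 and build GRCm39 are named, per the submitters' processing notes. The annotation release and strand setting were not given in the sources used here. Reads of C3H were thus counted against a B6-derived genome, and its effect was not tested. Symbols were matched for 51948 of 56941 gene identifiers.

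Counts were fitted with edgeR 4.0.16 (R 4.3.3): TMM factors (0.915 to 1.13), filterByExpr by strain, quasi-likelihood F test of strain, Benjamini-Hochberg adjustment over 18025 genes, threshold 0.05. A scarce gene can pass this filter only through the strain where it is higher. This was so for Cxcr2 and Cxcl15 (C3H) and for Ccl4, Ccr4 and Ccl27a (B6). SE values were recovered from the fold change and F. Pair ratios and receptor levels relative to markers used log2 CPM (prior count 2) and exact two-sided permutation tests over libraries. Library totals of 37205896 to 58251332 set the counting precision: 3 counts equal 0.0554 to 0.0806 CPM, which covers counting error only. Levels per kilobase used exon lengths of GENCODE M21 on GRCm38. The fitting procedure was tested on simulated data. Within-strain libraries differed beyond sampling noise and were counted separately.

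All 33 members were named, with every other listed family, signalling or organiser gene that passed, or the 6 with the smallest adjusted p where more than 6 passed; cell type markers were summarised. A further family gene is not reported here. Alternatives were other scalings and filters, DESeq2 1.42.0, limma-voom 3.58.1, robust dispersion, a replicate block, and libraries left out, including 2 sets chosen after seeing the data.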

Additional observations from a re-analysis of the deposited data

Results flagged for a closer look

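In 15 of 192 groups of 4 libraries examined, 1 library stood apart from the other 3 by Dixon's test. The usual rate of about 1 in 20 holds for independent groups of normally distributed values. These groups share genes and libraries, and some hold very low counts, so that rate does not apply directly. Of the 66 groups formed by the 33 genes, 6 had such a library, and 7 of the 15 flags in all were for B6 library 3.

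B6 library 3 was high for Ccl19 (0.319 CPM), Ccr6 (1.49 CPM), Cxcr4 (3.90 CPM) and Cxcr5 (2.23 CPM), and low for the log2 ratio of Cxcl12 to Cxcr4 (1.93). It was also high for the summed B cell markers (57.0 CPM) and follicular dendritic cell markers (5.64 CPM). C3H library 1 was high for Cxcr5 (0.981 CPM) and for Rac2 (20.3 CPM). C3H library 4 was high for Cxcl9 (15.6 CPM) and for Cx3cr1 (13.7 CPM). C3H library 3 was low for the log2 ratio of Cxcl12 to Cxcr4 (3.01), and C3H library 5 was high for that of Ccl3 to Ccr1 (-3.91). B6 library 2 was high for the summed lymphatic endothelial markers (55.9 CPM), and B6 library 4 for the summed markers of group 3 innate lymphoid cells (80.1 CPM).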

How the results depend on the processing

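With each library left out in turn, 10 to 13 of the members were called, 2 to 4 of them higher and 8 to 11 lower, and 9 to 11 other family genes; Ccl22 was the only called member lost in any of these 8 fits, without C3H library 3. A mean of at least 100 counts left 17 members, of which 7 were called, 1 higher, and 11 other family genes, of which 6 were called, 2 higher. Without the 4 pancreas-rich libraries 7 members were called, 5 lower; Ccl22, Cxcl10, Ccr9, Cxcr2 and Cxcr6 lost the call (adjusted p = 0.109, 0.203, 0.0932, 0.0528 and 0.239) and Cxcl13 gained it. Of the other named genes, Ccl9, Ccrl2, Dpp4, Adam17, Tnfrsf11a, Vcam1 and Nfkb2 also lost it (adjusted p = 0.563, 0.630, 0.391, 0.299, 0.129, 0.415 and 0.140), beside Ccr3, Dock2, Rac2 and Arrb1. Without B6 3 and C3H 1, 11 were called, 3 higher and 8 lower. DESeq2 called 13 and limma-voom 11 members. At a threshold of 0.01, 9 remained called, Ccl22 and Cxcr6 not.

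The following log2 values changed sign, and the cause was not tested. Ccr1 was 0.021 with library totals, 0.047 and 0.043 in the 6 libraries with shared numbers without and with the replicate block, and 0.088 without the pancreas-rich libraries. Without these, Cxcr5 was 2.001, Ccl28 0.44, Ccr6 0.71, Ccl2 0.054 and Ccr2 0.28. Cxcr5 was 0.43 by limma-voom. Without B6 3 and C3H 1, Ccl17 was 0.0037, Cxcl5 -0.41, Ccr6 0.31 and the ratio of Cxcr5 to B cell markers -0.0080. Ccr6 relative to B cell markers was 0.12 with their median. With a library left out, Cxcr5 ranged from -1.40 to 1.66, Ccr6 from -0.67 to 0.43, Ccl28 from -0.33 to 0.018, Ccr10 from -0.035 to 0.29, Ccr2 from -0.27 to 0.0026, the ratio of Cxcl10 to Cxcr3 from -0.27 to 0.18, Ccr7 relative to T cell markers from -0.20 to 0.61 and Cxcr5 relative to B cell markers from -0.18 to 0.23.

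Replicate numbers 3, 4 and 5 occur in both strains. The deviations of same-numbered libraries correlated at -0.02, 0.23 and -0.05, and only for number 4 was the same-numbered C3H library the best match. Such correlations cannot show whether the numbers mark pairs, so fits with and without a replicate block are given. In these 6 libraries 12 members were called with the replicate block and 11 without it. Cxcr6 missed the threshold without the block (adjusted p = 0.0587), and Ccr7 passed it with and without the block (adjusted p = 0.0394 and 0.0490). As paired differences, Ccr7 relative to T cell markers was -0.38 and Cxcr5 relative to B cell markers -0.36. The pair ratios cannot pass any adjusted threshold with 3 libraries against 4, so only their values were recomputed. Low counts limit Ccl3, Ccl4 and Cxcr2, and more so the 4 untested members.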

Other observations

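Glycam1, a ligand for the homing receptor of naive lymphocytes made by specialised venules, was 2.06 CPM in B6 library 3, 2.002 CPM in C3H library 1 and at most 0.332 CPM in the other 6 libraries. It was picked after its values were seen, because these are the libraries in which Cxcr5 was highest in each strain.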
